A study of Mus musculus with 24 samples.

Results

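The C-type lectin receptors of macrophages were followed through 24 RNA libraries made from bone marrow-derived macrophages (BMDM) of mice. The set held 10 genes, Mrc1, Clec10a, Mgl2, Cd209a, Cd209d, Clec7a, Clec4a2, Clec4n, Clec4d and Clec4e, chosen by symbol among 35770 named genes of the deposited table. Each library was made from C57BL/6 marrow cells differentiated with M-CSF at 20 ng/mL, and 3 libraries were labelled for each of 8 groups. The macrophages had received, for 24 h, either control media without cancer cells or conditioned media (CM) making up 75% of the volume, which LL2 cells had conditioned for 48 h. LL2 is a mouse Lewis lung carcinoma line from C57BL/6 mice, and the CM came from LL2 cells that were WT, KEAP1 KO or NRF2 KO. All 4 media were combined with vehicle or with 100 nM CDDO-Me, a synthetic oleanane triterpenoid that activates NRF2, giving the groups media/vehicle, WT CM/vehicle, KEAP1 KO CM/vehicle, NRF2 KO CM/vehicle and their CDDO-Me counterparts. KEAP1 and NRF2 were edited in the cancer cells, so the macrophages of every group carried both genes intact. Marrow suspensions were divided over wells before treatment, and the sources used here do not give the mouse behind each replicate number or the number of KO clones, so p-values measure the spread between these samples.

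C-type lectin receptors are surface proteins that bind sugars or glycolipids through a shared fold, many of them with the help of calcium. One group takes up glycoproteins: Mrc1 encodes the mannose receptor CD206, Clec10a and Mgl2 encode the galactose-binding lectins MGL1 and MGL2, and Cd209a and Cd209d are mouse relatives of DC-SIGN. In mouse macrophages Mrc1, Clec10a and Mgl2 are textbook genes of the IL-4 response. A further group senses fungi and mycobacteria: Clec7a (Dectin-1) binds beta-glucans and signals through its own tail to Syk and CARD9, while Clec4n (Dectin-2), Clec4d (MCL) and Clec4e (Mincle) signal through the Fc receptor gamma chain. Clec4a2 encodes DCIR, which carries an inhibitory motif in its tail.

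The genes lie in few places on the mouse genome (GRCm39). Clec10a (chr11:70047023-70061660) and Mgl2 (chr11:70020954-70028376) were 18.6 kb apart with no protein-coding gene between them. Clec4n (chr6:123206802-123223980), Clec4d (chr6:123239070-123252230) and Clec4e (chr6:123258748-123266829) followed each other at gaps of 15.1 kb and 6.5 kb, again with none between. Clec4a2 (chr6:123083387-123120958) lay 85.8 kb from Clec4n, and Clec7a (chr6:129438554-129449742) lay 6171.7 kb from Clec4e on the same chromosome. Cd209a (chr8:3793397-3798984) and Cd209d (chr8:3921824-3928568) were 122.8 kb apart, and Mrc1 (chr2:14234151-14336926), with 30 exons, stood alone. Sequence shared between genes limits how reads can be divided: of the 31-base words in its transcripts, Clec10a shared 13.7% with Mgl2, Mgl2 shared 17.1% with Clec10a, and Clec4a2 shared 4.82% with Clec4a4. With all other genes together the shares were 15.0% for Clec10a, 20.7% for Mgl2 and 11.3% for Clec4a2. Clec4n shared 1.93% of its words with other genes, and each of the remaining 6 members shared under 1%.

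The 250 bases before the start of the canonical transcript are shown for 2 members that rose with WT CM and 2 that rose with CDDO-Me, as reference sequence of GRCm39 outside annotated exons. Capitals mark the letters GAGGAA, or TTCCTC on the other strand, the core bound by PU.1, the myeloid factor that macrophages depend on.
Mrc1, chr2:14233901-14234150, plus strand: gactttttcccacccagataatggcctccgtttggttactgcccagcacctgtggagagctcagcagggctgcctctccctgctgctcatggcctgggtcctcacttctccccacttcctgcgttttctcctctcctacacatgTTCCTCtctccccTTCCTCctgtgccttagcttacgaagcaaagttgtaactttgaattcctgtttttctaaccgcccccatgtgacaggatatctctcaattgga
Mgl2, chr11:70020704-70020953, plus strand: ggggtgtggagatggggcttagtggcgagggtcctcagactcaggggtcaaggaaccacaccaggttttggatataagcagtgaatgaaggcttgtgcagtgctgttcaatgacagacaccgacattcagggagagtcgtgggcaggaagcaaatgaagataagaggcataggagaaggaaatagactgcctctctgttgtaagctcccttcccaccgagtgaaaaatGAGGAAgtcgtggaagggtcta
Clec4n, chr6:123206552-123206801, plus strand: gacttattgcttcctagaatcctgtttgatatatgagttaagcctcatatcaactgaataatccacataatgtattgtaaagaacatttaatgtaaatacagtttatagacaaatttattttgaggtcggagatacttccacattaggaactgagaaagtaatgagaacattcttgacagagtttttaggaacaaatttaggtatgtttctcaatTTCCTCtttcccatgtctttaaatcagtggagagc
Clec4e, chr6:123266830-123267079, minus strand: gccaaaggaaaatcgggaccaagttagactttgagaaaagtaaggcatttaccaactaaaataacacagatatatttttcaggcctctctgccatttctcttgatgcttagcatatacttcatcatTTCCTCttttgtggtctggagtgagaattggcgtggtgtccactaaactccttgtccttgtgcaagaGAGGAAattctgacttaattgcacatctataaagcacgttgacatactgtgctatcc
These letters occurred in the window of 9 of the 10 members, all but Cd209a, and in 22.9% of the 21574 windows of protein-coding genes. They lay 22 to 17 bases before the start in Mgl2 and 35 to 30 bases before it in Clec4n, while Mrc1 and Clec4e each held 2 copies. Other motifs searched on both strands were each found in 1 to 3 of the 10 members, beside 3.31% to 11.9% of all windows. The STAT6 motif was found in Clec7a alone (5.87% of all windows), the STAT letters TTCNNNGAA in Clec4n alone (7.7%), and the NRF2 letters TGACNNNGC in Clec10a and Cd209d (9.69%). The interferon-stimulated response element was found in Clec4d alone (3.31%), the C/EBP letters TTGCNNAA in Clec4e alone (9.36%), and TATAAA in Cd209a, Clec4n and Clec4e (11.9%). None of the matches in the 4 sequences shown overlapped another, and a match of letters is a description, not evidence of binding.

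Values are in TPM, a share of all transcripts in a library after correction for transcript length, and do not show how many reads lay behind them. Replicate 3 of NRF2 KO CM/vehicle (15702 genes above 0) and of NRF2 KO CM/CDDO-Me (16299) detected fewer genes than the other libraries (17817 to 18993). All 10 macrophage markers checked were above 1 TPM in at least 3 libraries, with a summed level of 15809.5 to 38685.6 TPM. All 10 NRF2 targets checked rose with CDDO-Me in media and in NRF2 KO CM, against 7 in WT CM and 8 in KEAP1 KO CM. Fibroblast markers were also present, at summed levels of 228 to 2648 TPM. Differences were tested with limma on log2 of scaled TPM plus 1, across 13661 genes and all 24 libraries, with Benjamini-Hochberg adjustment and a threshold of 0.05. Of the members, 9 were tested. Cd209d was not, since its highest value was 0.909 TPM, and Cd209a entered the test through its levels in WT CM/vehicle and KEAP1 KO CM/vehicle.

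The receptors divided into genes high with WT or KEAP1 KO CM and vehicle, genes high with CDDO-Me, and Clec7a and Clec4a2, which were called in no comparison unless the replicate block or array weights were used. Mrc1, Clec10a, Mgl2 and Cd209a rose with WT CM and with KEAP1 KO CM and were lower in both media when CDDO-Me was present. Clec4n rose with CDDO-Me in all 4 media, by 8.16-fold to 41.8-fold in mean TPM. Clec4e was called higher with CDDO-Me in WT CM and KEAP1 KO CM, and Clec4d in KEAP1 KO CM and NRF2 KO CM. In KEAP1 KO CM the Clec4d libraries with CDDO-Me overlapped those with vehicle. In media they lay above those with vehicle, and Clec4d was called there with the replicate block (adjusted p = 0.00112). Summed over the 10 genes, the level was 1368 ± 209.9 TPM (SD, n = 3) in media/vehicle, 3641 ± 339 in WT CM/vehicle and 3261 ± 271 in KEAP1 KO CM/vehicle. It was 1658 ± 162 in WT CM/CDDO-Me and 2403 ± 397 in KEAP1 KO CM/CDDO-Me, with Mrc1 and Mgl2 making up less of the sum and Clec4n more. In the other media the summed level was higher with CDDO-Me. It was 2311 ± 502 in media/CDDO-Me, and 1601 ± 367 in NRF2 KO CM/vehicle against 3400 ± 1245 in NRF2 KO CM/CDDO-Me.

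**Figure D1:**
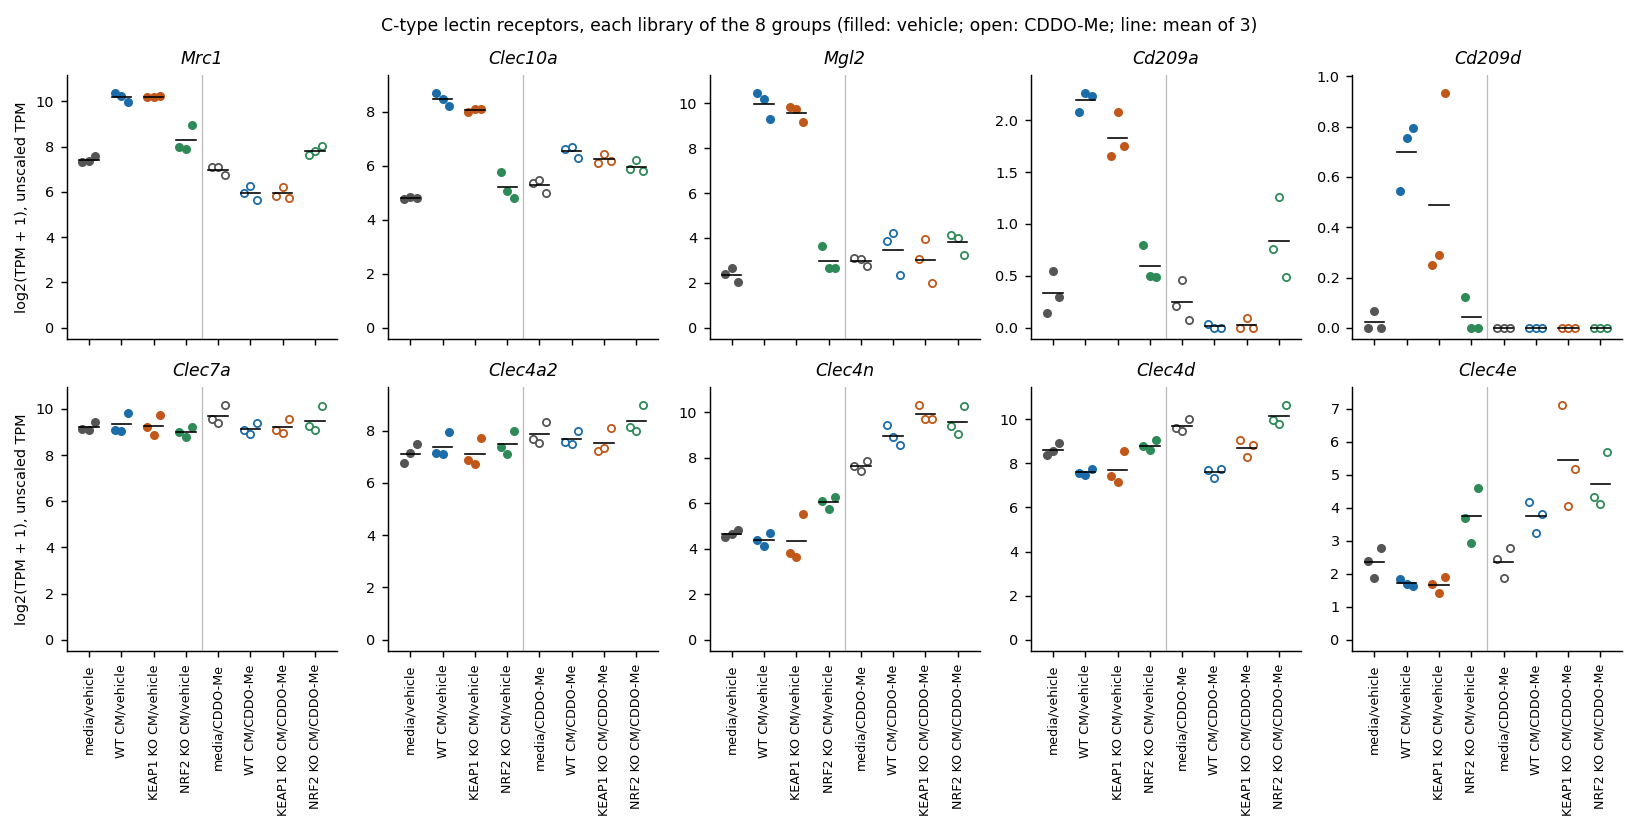
Level of each of the 10 receptor genes in every library, as log2 of TPM plus 1 without scaling between libraries, with vehicle groups filled, CDDO-Me groups open and a line at the mean of the 3 log values; each panel has its own axis. Mrc1, Clec10a, Mgl2, Cd209a and Cd209d were highest in WT CM/vehicle and KEAP1 KO CM/vehicle, Clec4n was higher in every CDDO-Me group than in every vehicle group, and the Clec7a groups lay between means of 512 and 858 TPM.

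With vehicle, 4 of the 9 tested members were higher in WT CM than in media and 0 were lower, beside 4.38% and 2.85% of all genes (7.23% in either direction). These counts are from the fit without pairing. With the replicate number as a block, which the deviations of the libraries warranted here, Clec4d was also called lower (adjusted p = 0.00304). Under that block 1743 of the 13661 genes tested were called. In KEAP1 KO CM against media the counts without the block were again 4 and 0, beside 4.87% and 3.19% of all genes (8.06% in all). The 4 members of both counts included Cd209a, which entered the test through its levels in WT CM/vehicle and KEAP1 KO CM/vehicle. Its calls are therefore no independent support. The median log2 difference of the 9 members was 0.34 with WT CM, against 0.01 for all genes tested. NRF2 KO CM against media called 0 members with limma, and 0.00732% of all genes (1 gene). At an unadjusted p under 0.05 that comparison held 1650 genes, with 4 members higher. These comparisons share the media/vehicle libraries.

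Mrc1 was listed at 157, 164 and 188 TPM in media/vehicle, at 1306, 1193 and 1015 TPM in WT CM/vehicle and at 1173, 1150.1 and 1213 TPM in KEAP1 KO CM/vehicle, in the order of replicates 1, 2 and 3. In NRF2 KO CM/vehicle it was at 251, 238 and 500.1 TPM. Every WT CM and KEAP1 KO CM library thus lay above every media and NRF2 KO CM library, and the highest NRF2 KO CM value came from the library with the fewest genes. Mrc1 rose by 2.84 on the log2 scale in WT CM (SE 0.23, adjusted p = 6.65e-08) and by 2.79 in KEAP1 KO CM (SE 0.23, adjusted p = 8.87e-08), about 6.90-fold and 6.94-fold in mean TPM. Bulk libraries cannot tell fewer cells of a type from less RNA per cell. In NRF2 KO CM the difference from media was 0.87 (SE 0.23, adjusted p = 0.408), although the 3 libraries did not overlap those of media.

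Clec10a stood at 26.4, 27.8 and 27.1 TPM in media/vehicle and at 53.6, 32.3 and 26.8 TPM in NRF2 KO CM/vehicle. It reached 408, 356 and 295 TPM in WT CM/vehicle and 251, 274 and 271 TPM in KEAP1 KO CM/vehicle. The WT CM and KEAP1 KO CM libraries were thus separate from the rest, and the lowest WT CM value was above the highest KEAP1 KO CM value. The rise over media was 3.71 on the log2 scale with WT CM (SE 0.17, adjusted p = 1.69e-11) and 3.24 with KEAP1 KO CM (SE 0.17, adjusted p = 1.29e-10).

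Mgl2, the neighbour of Clec10a, was nearly silent in media. Its levels were 4.27, 5.33 and 3.15 TPM in media/vehicle and 11.4, 5.37 and 5.27 TPM in NRF2 KO CM/vehicle. In WT CM/vehicle they were 1394, 1155 and 620.4 TPM, and in KEAP1 KO CM/vehicle 903, 846 and 578 TPM. Both of these groups were far above the other vehicle groups, and within them replicate 3 was lowest. Mean TPM was 248-fold higher with WT CM than with media and 182-fold higher with KEAP1 KO CM. On the log2 scale the rises were 7.65 (SE 0.45, adjusted p = 4.74e-10) and 7.19 (SE 0.45, adjusted p = 1.28e-09). Of the 31-base words of Mgl2, 17.1% also occur in Clec10a, and 13.7% of those of Clec10a occur in Mgl2. Part of the signal of either gene could belong to the other, which was not tested. Mgl2 exceeded Clec10a in every WT CM and KEAP1 KO CM library with vehicle.

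The DC-SIGN relatives were low. Cd209a was listed at 0.106, 0.465 and 0.229 TPM in media/vehicle, 3.23, 3.78 and 3.69 TPM in WT CM/vehicle and 2.16, 3.24 and 2.37 TPM in KEAP1 KO CM/vehicle. In NRF2 KO CM/vehicle it was listed at 0.739, 0.410 and 0.404 TPM. Again the WT CM and KEAP1 KO CM libraries stood above both other groups. The rise over media was 1.88 on the log2 scale with WT CM (SE 0.17, adjusted p = 3.71e-07) and 1.47 with KEAP1 KO CM (SE 0.17, adjusted p = 8.54e-06), sizes that the pseudocount of 1 shrinks at such levels. Cd209a entered the test through its levels in these CM groups, so these p-values are no independent support for its rise. Cd209d was listed at 0.457, 0.687 and 0.736 TPM in WT CM/vehicle and at 0.188, 0.223 and 0.909 TPM in KEAP1 KO CM/vehicle. It was listed at 0 in 2 of 3 libraries of both media/vehicle and NRF2 KO CM/vehicle, where the third held 0.0479 and 0.0891 TPM. Cd209d was too low to be tested.

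Cd209a and its relatives are also known from dendritic cells, so dendritic cell markers were read beside these genes. The summed level of 9 such markers was 335 to 430 TPM in WT CM/vehicle and 262 to 310 TPM in KEAP1 KO CM/vehicle, against 152 to 274 TPM in media/vehicle and 111 to 160 TPM in NRF2 KO CM/vehicle. Of the 6 tested, Irf4 (2.67) and Itgax (1.02) rose with WT CM on the log2 scale and Kit fell by 1.32. The dendritic cell markers Flt3 and Xcr1, named after their values were seen, were listed at no more than 0.239 and 0.148 TPM in every vehicle library. The summed level of 5 epithelial markers was higher as well, at 1.55 to 2.49 TPM in media/vehicle, 4.98 to 6.01 TPM in WT CM/vehicle and 8.76 to 9.23 TPM in KEAP1 KO CM/vehicle. Of these markers 2 were above 1 TPM in at least 3 libraries, and Cdh1 was 2.12 higher on the log2 scale in WT CM. The sum of 8 lymphocyte markers moved the other way, from 12.5 to 15.0 TPM in media/vehicle to 5.98 to 6.43 TPM in WT CM/vehicle, led by Cd4. Of these markers 1 was above 1 TPM in at least 3 libraries. The part of other cell types in the receptor differences was not tested.

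Loss of KEAP1 in the cancer cells was not followed by a called difference in any receptor. KEAP1 KO CM/vehicle against WT CM/vehicle called 0 of 9 members and 0% of genes with limma. At an unadjusted p under 0.05 it held 350 genes, with 2 members lower. These were Clec10a, which differed by -0.47 on the log2 scale (95% interval -0.83 to -0.10, adjusted p = 1), and Cd209a, which differed by -0.41 (-0.77 to -0.05, adjusted p = 1). For Mrc1 the difference was -0.05 with an interval of -0.54 to 0.43, and for Mgl2 it was -0.46 with an interval of -1.40 to 0.48. The intervals leave room for a change of either sign in Mrc1 and Mgl2. With array weights, which give noisy libraries less influence, Clec10a (-0.64, adjusted p = 0.00343) and Cd209a (-0.44, adjusted p = 0.0387) passed as lower in KEAP1 KO CM.

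WT CM and NRF2 KO CM differed in 7 of the 9 members, 4 higher and 3 lower in WT CM, beside 6.84% and 3.76% of all genes (10.6% in all). Mrc1 was 1.97 higher on the log2 scale (SE 0.23, adjusted p = 1.05e-05), Clec10a 3.31 higher (SE 0.17, adjusted p = 1.16e-10), Mgl2 7.04 higher (SE 0.45, adjusted p = 1.86e-09) and Cd209a 1.62 higher (SE 0.17, adjusted p = 3.09e-06). The call for Cd209a again concerns a group through which it entered the test. The 3 lower members were the neighbours Clec4n, Clec4d and Clec4e, described next.

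Clec4n, the receptor for fungal mannans known as Dectin-2, was listed with vehicle at 22.0, 24.0 and 27.0 TPM in media, 19.8, 16.3 and 24.7 TPM in WT CM and 13.0, 11.5 and 45.3 TPM in KEAP1 KO CM. In NRF2 KO CM/vehicle it was at 67.1, 52.7 and 76.2 TPM, above every other vehicle library. Its difference from media in NRF2 KO CM was 1.38 on the log2 scale (SE 0.41, adjusted p = 0.408). Against NRF2 KO CM its difference in WT CM was -1.58 (SE 0.41, adjusted p = 0.0185). That call was lost without WT CM/vehicle replicate 1 (adjusted p = 0.0619), WT CM/vehicle replicate 2 (0.0754) or NRF2 KO CM/vehicle replicate 3 (0.0682).

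Clec4d, which encodes the Mincle partner MCL, was at 335, 376 and 481 TPM in media/vehicle and 438, 384 and 530.3 TPM in NRF2 KO CM/vehicle. It was at 185, 177 and 217 TPM in WT CM/vehicle and 169, 142 and 375 TPM in KEAP1 KO CM/vehicle. All WT CM libraries were below all media libraries, and replicate 3 of KEAP1 KO CM/vehicle lay within the media range. The difference from media was -0.96 on the log2 scale in WT CM (SE 0.33, adjusted p = 0.0981, or 0.00304 with the replicate number as a block) and -0.91 in KEAP1 KO CM (SE 0.33, adjusted p = 0.109). Without KEAP1 KO CM/vehicle replicate 3 the latter was -1.36 (adjusted p = 0.0088). WT CM against NRF2 KO CM differed by -1.14 (SE 0.33, adjusted p = 0.032). That call was lost without any 1 of the WT CM/vehicle libraries (adjusted p = 0.0976, 0.101 and 0.0598) or NRF2 KO CM/vehicle replicate 3 (0.118).

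Clec4e, the glycolipid receptor Mincle, was scarce with vehicle. It was listed at 4.22, 2.67 and 5.84 TPM in media, 2.55, 2.24 and 2.09 TPM in WT CM and 2.23, 1.66 and 2.77 TPM in KEAP1 KO CM, against 11.9, 6.58 and 23.3 TPM in NRF2 KO CM. The NRF2 KO CM libraries lay above all other vehicle libraries and spread widely. WT CM differed from NRF2 KO CM by -1.96 on the log2 scale (SE 0.60, adjusted p = 0.0416). The call was lost without any 1 of the WT CM/vehicle libraries (adjusted p = 0.0928, 0.101 and 0.112), NRF2 KO CM/vehicle replicate 1 (0.0518) or replicate 3 (0.178, with a difference of -1.49). Neither WT CM (-0.57, adjusted p = 0.747) nor KEAP1 KO CM (-0.66, adjusted p = 0.667) gave a called difference from media.

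Clec7a and Clec4a2 showed no called difference between media with vehicle. Clec7a was among the most abundant members, at 561, 541 and 699 TPM in media/vehicle, 549.6, 534 and 919 TPM in WT CM/vehicle, 599, 474 and 849 TPM in KEAP1 KO CM/vehicle and 504, 439 and 591 TPM in NRF2 KO CM/vehicle. Clec4a2 was at 106, 141 and 176 TPM, 139.5, 137 and 243 TPM, 117, 104 and 208 TPM, and 163, 135 and 253 TPM in the same 4 groups. The libraries of all these groups overlapped for both genes. In WT CM against media the difference of Clec7a was 0.19 on the log2 scale (95% interval -0.50 to 0.87) and that of Clec4a2 was 0.34 (-0.46 to 1.14).

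**Figure D2:**
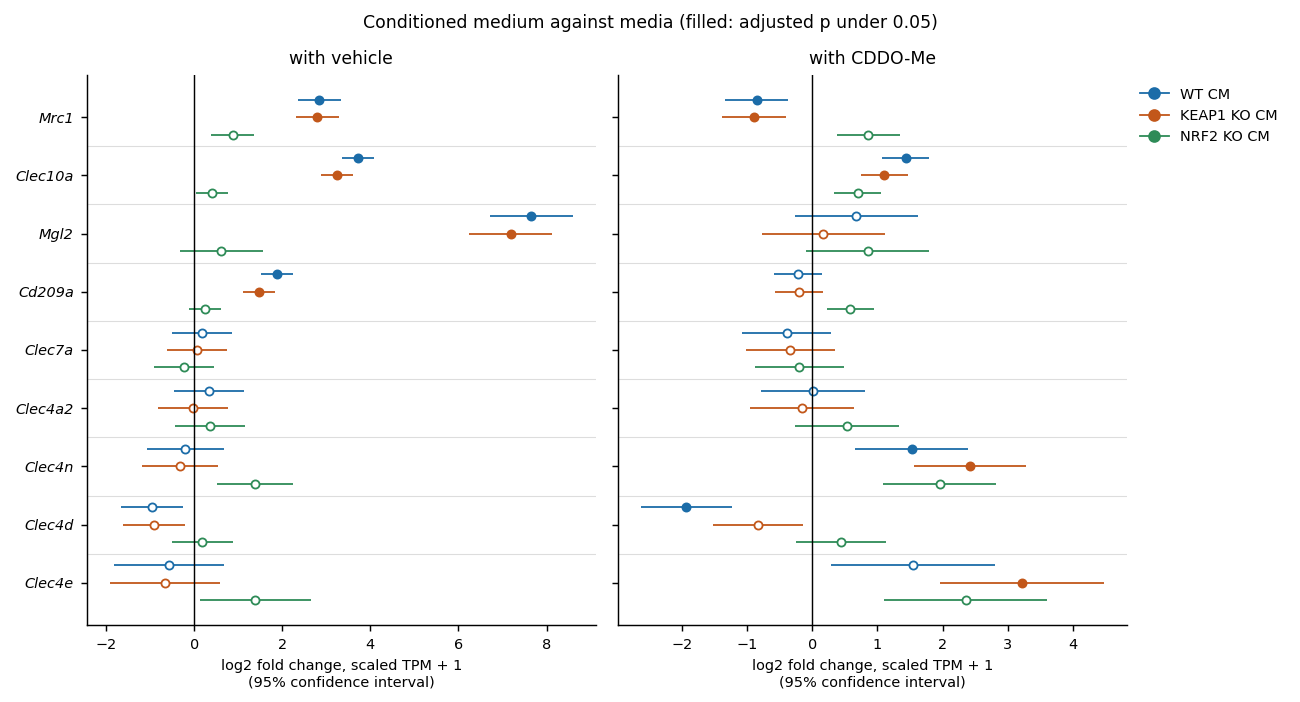
Log2 difference of each tested receptor between WT, KEAP1 KO or NRF2 KO CM and media, on the scale of scaled TPM plus 1, with vehicle on the left and CDDO-Me on the right; bars are 95% confidence intervals and filled points have an adjusted p under 0.05. With vehicle the filled points are Mrc1, Clec10a, Mgl2 and Cd209a in WT and KEAP1 KO CM, up to 7.65 for Mgl2, and no receptor is filled for NRF2 KO CM in either panel.

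CDDO-Me was compared with vehicle in each medium. In media, 1 member was higher and 0 lower, beside 3.22% and 2.8% of all genes (6.02% in all). In WT CM, 2 were higher and 4 lower, beside 14.4% and 13.4% (27.9% in all). In KEAP1 KO CM, 3 were higher and 4 lower, beside 14.4% and 14.3% (28.8% in all). The 4 lower members in both of these media included Cd209a, which entered the test through its vehicle levels there. In NRF2 KO CM, 3 were higher and 0 lower, beside 4.87% and 4.74% (9.61% in all). With the replicate number as a block, which the deviations of the libraries warranted in media and NRF2 KO CM, 4 members were called in media and 5 in NRF2 KO CM. Under that block 1464 of the 13661 genes tested were called in media and 1986 in NRF2 KO CM.

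Mrc1, high in WT CM and KEAP1 KO CM with vehicle, was at its lowest in the same media with CDDO-Me. It was listed at 134, 137 and 105 TPM in media/CDDO-Me, 59.9, 76.2 and 48.3 TPM in WT CM/CDDO-Me, 56.0, 73.5 and 52.2 TPM in KEAP1 KO CM/CDDO-Me, and 199, 221 and 258 TPM in NRF2 KO CM/CDDO-Me. In WT CM and KEAP1 KO CM with CDDO-Me it was below every media library, with or without CDDO-Me. The difference between CDDO-Me and vehicle was -4.12 on the log2 scale in WT CM (SE 0.23, adjusted p = 4.18e-11) and -4.11 in KEAP1 KO CM (SE 0.23, adjusted p = 4.48e-11), against -0.42 in media (adjusted p = 0.429) and -0.43 in NRF2 KO CM (adjusted p = 0.316). The mean TPM was 19.1-fold lower in WT CM and 19.5-fold lower in KEAP1 KO CM. Over the 4 media, Mrc1 was higher with CDDO-Me than with vehicle in 0 of 12 same-numbered pairs of libraries.

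The galactose-binding lectins parted under CDDO-Me. Clec10a was at 95.9, 102 and 77.7 TPM in WT CM/CDDO-Me and 68.0, 84.9 and 70.2 TPM in KEAP1 KO CM/CDDO-Me, below the vehicle libraries of those media but above every media library. Mgl2 was at 13.6, 17.5 and 4.10 TPM in WT CM/CDDO-Me and 7.49, 14.3 and 2.98 TPM in KEAP1 KO CM/CDDO-Me, a range that overlapped media/vehicle. In mean TPM Clec10a was 3.84-fold lower with CDDO-Me in WT CM and 3.57-fold lower in KEAP1 KO CM, and Mgl2 was 90.0-fold and 93.9-fold lower, the latter 148-fold without KEAP1 KO CM/CDDO-Me replicate 2. On the log2 scale the differences were -1.80 (SE 0.17, adjusted p = 1.02e-07) and -1.66 (SE 0.17, adjusted p = 3.10e-07) for Clec10a, and -6.37 (SE 0.45, adjusted p = 1.11e-09) and -6.42 (SE 0.45, adjusted p = 1.02e-09) for Mgl2.

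In the other media Clec10a did not fall. It was listed at 40.4, 43.6 and 30.5 TPM in media/CDDO-Me and at 57.4, 72.2 and 55.3 TPM in NRF2 KO CM/CDDO-Me, each group above its vehicle libraries. The rise passed the test in NRF2 KO CM (0.78 on the log2 scale, SE 0.17, adjusted p = 0.00542) and not in media (0.48, adjusted p = 0.129). The call in NRF2 KO CM was lost when only the compared groups were fitted (0.77, adjusted p = 0.342). Mgl2 was at 7.55, 7.35 and 5.65 TPM in media/CDDO-Me and 16.7, 15.2 and 8.42 TPM in NRF2 KO CM/CDDO-Me, with differences of 0.60 (adjusted p = 0.653) and 0.84 (adjusted p = 0.31) from vehicle.

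Cd209a was listed at 0.0263, 0 and 0 TPM in WT CM/CDDO-Me and at 0, 0.0644 and 0 TPM in KEAP1 KO CM/CDDO-Me. It was at 0.153, 0.375 and 0.0511 TPM in media/CDDO-Me and 0.695, 1.40 and 0.401 TPM in NRF2 KO CM/CDDO-Me. The libraries of WT CM/CDDO-Me lay below those of media/CDDO-Me, those of KEAP1 KO CM/CDDO-Me overlapped them, and NRF2 KO CM/CDDO-Me lay above all of these. The difference from vehicle was -2.18 on the log2 scale in WT CM (SE 0.17, adjusted p = 6.96e-09) and -1.76 in KEAP1 KO CM (SE 0.17, adjusted p = 1.49e-07). Cd209a entered the test through the vehicle groups of these media, so these p-values are no independent support for its fall. Cd209d was listed at 0 in all 12 CDDO-Me libraries.

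The change with CDDO-Me differed between media, by tests of the difference itself. Against the change in media alone, that in WT CM differed in 4 members, all lower, beside 6.73% of all genes lower and 8.59% higher (15.3% in all). That in KEAP1 KO CM differed in 6 members, 4 lower and 2 higher, beside 6.65% and 8.19% of all genes (14.8% in all). For Mrc1 the difference of differences was -3.70 (SE 0.33, adjusted p = 7.92e-08) with WT CM and -3.69 (SE 0.33, adjusted p = 8.85e-08) with KEAP1 KO CM. For Mgl2 it was -6.98 (SE 0.64, adjusted p = 1.10e-07) and -7.02 (SE 0.64, adjusted p = 1.12e-07). For Clec10a it was -2.28 and -2.14, and for Cd209a -2.10 and -1.67. The calls for Cd209a have the limit that it entered the test through its vehicle levels in WT CM and KEAP1 KO CM. These comparisons share the media libraries. The change with CDDO-Me in KEAP1 KO CM against that in WT CM called 0 members and 0% of genes with limma, and at an unadjusted p under 0.05 it held 224 genes and 1 member, Clec4d (1.06, 95% interval 0.07 to 2.04). The change in NRF2 KO CM against that in media likewise called 0 members and 0% of genes, with 359 genes and 0 members at an unadjusted p under 0.05.

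Clec4n rose most among the receptors. With CDDO-Me it was listed at 198, 168 and 229 TPM in media, 697, 474 and 379 TPM in WT CM, 1261, 821 and 836 TPM in KEAP1 KO CM and 663, 527 and 1244 TPM in NRF2 KO CM. Its lowest CDDO-Me library, at 168 TPM, was above its highest vehicle library, at 76.2 TPM. The differences from vehicle on the log2 scale were 2.99 in media (SE 0.41, adjusted p = 8.60e-05), 4.71 in WT CM (SE 0.41, adjusted p = 2.78e-08), 5.74 in KEAP1 KO CM (SE 0.41, adjusted p = 1.51e-09) and 3.56 in NRF2 KO CM (SE 0.41, adjusted p = 7.53e-06). Mean TPM was 8.16-fold, 25.5-fold, 41.8-fold and 12.4-fold higher in the same order. Without KEAP1 KO CM/vehicle replicate 3, at 45.3 TPM, the rise in KEAP1 KO CM was 79.4-fold and 6.36 on the log2 scale, and its excess over media, given next, was 3.37. The rise in KEAP1 KO CM exceeded that in media by 2.75 on the log2 scale (SE 0.58, adjusted p = 0.0023), and the rise in WT CM exceeded it by 1.72 (SE 0.58, adjusted p = 0.0531).

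Clec4e followed only in part. It was at 4.45, 2.64 and 5.86 TPM in media/CDDO-Me, 16.9, 8.51 and 13.1 TPM in WT CM/CDDO-Me, 137, 15.6 and 35.0 TPM in KEAP1 KO CM/CDDO-Me, and 19.0, 16.3 and 50.7 TPM in NRF2 KO CM/CDDO-Me. Media libraries with CDDO-Me overlapped those with vehicle, and KEAP1 KO CM/CDDO-Me replicate 1 stood apart from the other libraries. The difference from vehicle was 2.15 on the log2 scale in WT CM (SE 0.60, adjusted p = 0.00973) and 3.92 in KEAP1 KO CM (SE 0.60, adjusted p = 3.56e-05). It was 0.04 in media (95% interval -1.22 to 1.29) and 1.00 in NRF2 KO CM (-0.26 to 2.26). The rise in KEAP1 KO CM exceeded the change in media by 3.88 (SE 0.85, adjusted p = 0.00296). Without KEAP1 KO CM/CDDO-Me replicate 1 the rise in KEAP1 KO CM was 3.08 (adjusted p = 0.000198) and its excess over media 3.05 (adjusted p = 0.00628), and without replicate 2 they were 4.65 and 4.61. In mean TPM the rise was 28.1-fold, 11.4-fold without replicate 1 and 38.6-fold without replicate 2. In WT CM the call was lost with a pseudocount of 5 (adjusted p = 0.0517).

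Clec4d rose in some media only. It was at 776, 716 and 1036 TPM in media/CDDO-Me and 1001, 876 and 1586 TPM in NRF2 KO CM/CDDO-Me, against 206, 160.2 and 212 TPM in WT CM/CDDO-Me and 526, 307 and 458 TPM in KEAP1 KO CM/CDDO-Me. In media and in NRF2 KO CM every CDDO-Me library was above every vehicle library, while in WT CM and in KEAP1 KO CM the ranges overlapped. The difference from vehicle was 1.10 on the log2 scale in media (SE 0.33, adjusted p = 0.0581, or 0.00112 with the block), 1.35 in NRF2 KO CM (SE 0.33, adjusted p = 0.0116) and 1.18 in KEAP1 KO CM (SE 0.33, adjusted p = 0.0100). In WT CM it was 0.12 (95% interval -0.57 to 0.82). The call in NRF2 KO CM was lost without NRF2 KO CM/CDDO-Me replicate 3 (1.05, adjusted p = 0.0687) or with the compared groups only (1.34, adjusted p = 0.162). The call in KEAP1 KO CM was lost with the compared groups only (1.17, adjusted p = 0.0608) and without KEAP1 KO CM/vehicle replicate 1 (adjusted p = 0.0528), KEAP1 KO CM/vehicle replicate 2 (0.0776) or KEAP1 KO CM/CDDO-Me replicate 1 (0.0547).

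Neutrophils are known to carry Clec4d, Clec4e and Clec4n, so neutrophil markers were read beside these genes. The summed level of 10 markers was 15.8 to 28.3 TPM in media/vehicle, 11.9 to 38.7 TPM in WT CM/vehicle, 16.9 to 26.1 TPM in KEAP1 KO CM/vehicle and 14.6 to 31.5 TPM in NRF2 KO CM/vehicle. With CDDO-Me it was 33.2 to 52.4, 33.7 to 60.4, 65.9 to 76.6 and 35.1 to 65.5 TPM in the same media. Of the 5 tested, S100a8 alone rose, by 2.19 on the log2 scale in WT CM, 2.54 in KEAP1 KO CM and 1.79 in NRF2 KO CM. Other marker sums also moved with CDDO-Me: fibroblast markers went from 697 to 1449 TPM in WT CM/vehicle to 275 to 767 TPM in WT CM/CDDO-Me, and the dendritic cell marker Clec9a, itself a C-type lectin, rose by 6.61 on the log2 scale in WT CM while Irf4 fell by 3.04. The part of these cell types in the receptor changes was not tested.

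Clec4a2 was 1.68-fold higher in mean TPM with CDDO-Me in media and 1.88-fold higher in NRF2 KO CM, but calls for it and for Clec7a rested on the replicate block or, for Clec4a2, on array weights. Clec7a was at 763, 666 and 1143 TPM in media/CDDO-Me, 543, 479.8 and 669.7 TPM in WT CM/CDDO-Me, 551, 498 and 756 TPM in KEAP1 KO CM/CDDO-Me, and 615, 538 and 1121 TPM in NRF2 KO CM/CDDO-Me. Clec4a2 was at 204, 185 and 323 TPM, 189, 178 and 254 TPM, 149, 158 and 270.5 TPM, and 284, 252 and 499.5 TPM in the same groups. For both genes replicate 3 was the highest library in 8 of 8 groups. Clec4a2 was higher with CDDO-Me in 12 of 12 same-numbered pairs of libraries and Clec7a in 10 of 12. Without the block no difference passed: Clec4a2 differed by 0.75 in media (adjusted p = 0.361) and 0.92 in NRF2 KO CM (adjusted p = 0.157), and Clec7a by 0.50 (adjusted p = 0.556) and 0.53 (adjusted p = 0.398). With the replicate number as a block these became calls, with adjusted p = 0.000704 and 6.62e-05 for Clec4a2 and 0.0134 and 0.00711 for Clec7a.

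**Figure D3:**
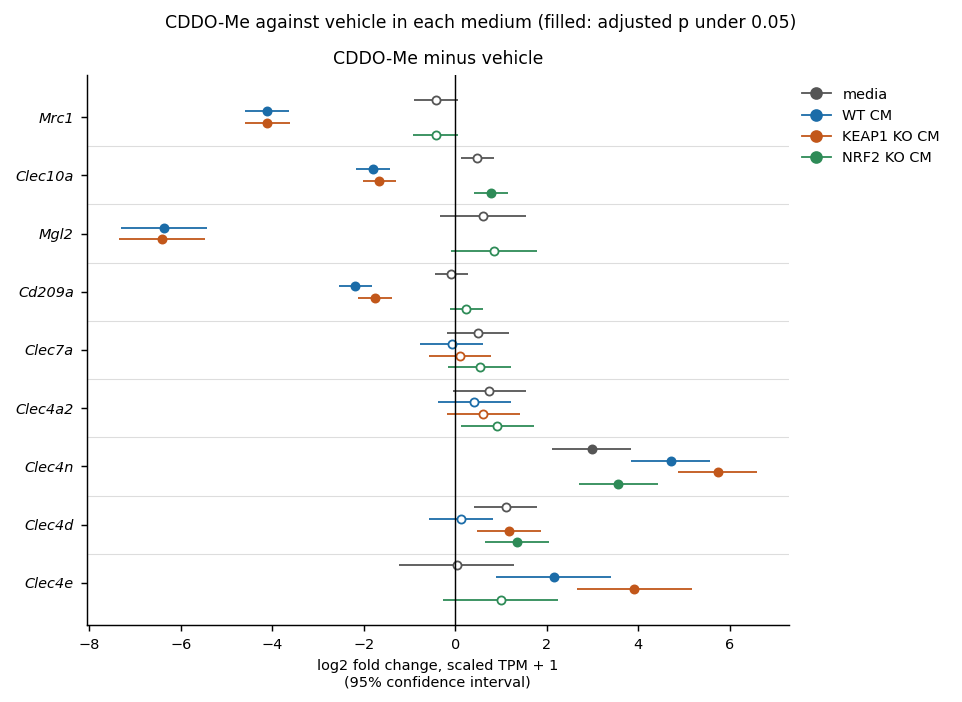
Log2 difference of each tested receptor between CDDO-Me and vehicle in the 4 media, on the scale of scaled TPM plus 1, with 95% confidence intervals; filled points have an adjusted p under 0.05. Mrc1, Clec10a, Mgl2 and Cd209a lie below 0 in WT and KEAP1 KO CM, down to -6.42 for Mgl2, and Clec4n lies above 0 in all 4 media, up to 5.74.

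Among macrophages that all received CDDO-Me, CM was again compared with media. WT CM changed 4 of 9 members, 2 higher and 2 lower, beside 14% and 12.8% of all genes (26.8% in all). KEAP1 KO CM changed 4, 3 higher and 1 lower, beside 12.1% and 10.5% (22.6% in all). Clec10a was higher than in media by 1.43 on the log2 scale in WT CM (SE 0.17, adjusted p = 2.89e-06) and by 1.10 in KEAP1 KO CM (SE 0.17, adjusted p = 7.39e-05). Mrc1 was lower in both, with differences of -0.85 (SE 0.23, adjusted p = 0.00914) and -0.89 (SE 0.23, adjusted p = 0.00766), the direction opposite to that with vehicle. Without WT CM/CDDO-Me replicate 3 the difference of Mrc1 in WT CM was -0.71 (adjusted p = 0.0582), and that of Mgl2 became a call at 1.23 (adjusted p = 0.0469).

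Clec4n was higher than in media by 1.52 in WT CM (SE 0.41, adjusted p = 0.00877) and by 2.42 in KEAP1 KO CM (SE 0.41, adjusted p = 0.000175). The former was lost without WT CM/CDDO-Me replicate 1 (1.27, adjusted p = 0.0548). Clec4d, its neighbour, was lower in WT CM, with a difference of -1.93 (SE 0.33, adjusted p = 0.000169), and differed by -0.83 in KEAP1 KO CM (adjusted p = 0.0825, or 0.00334 with the block). Clec4e was higher by 3.22 in KEAP1 KO CM (SE 0.60, adjusted p = 0.000436; 2.39 without KEAP1 KO CM/CDDO-Me replicate 1 and 3.95 without replicate 2), and differed by 1.54 in WT CM (adjusted p = 0.0648, or 0.0155 with the block). Clec7a differed by -0.40 in WT CM and -0.34 in KEAP1 KO CM, and passed only with the block (adjusted p = 0.0204 and 0.0486). In NRF2 KO CM 0 of 9 members passed with limma, beside 0.154% of all genes higher and 0.0366% lower (0.19% in all), and at an unadjusted p under 0.05 there were 1000 genes and 5 members, all higher. With the block 3 members passed there, Clec4n (1.96, adjusted p = 0.0118), Clec4e (2.35, adjusted p = 0.0261) and Clec10a (0.70, adjusted p = 0.0427). Under that block 160 of the 13661 genes tested passed.

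The order of the 8 groups was settled in only part by the spread between libraries. For Mrc1 the group means ran from KEAP1 KO CM/vehicle and WT CM/vehicle, which overlapped, down through NRF2 KO CM/vehicle and NRF2 KO CM/CDDO-Me, which overlapped, to media/vehicle, media/CDDO-Me and the overlapping pair KEAP1 KO CM/CDDO-Me and WT CM/CDDO-Me. Clec10a separated WT CM/vehicle from KEAP1 KO CM/vehicle, KEAP1 KO CM/vehicle from WT CM/CDDO-Me, and NRF2 KO CM/CDDO-Me from media/CDDO-Me, and its other neighbours in order overlapped. Mgl2 had a gap only between KEAP1 KO CM/vehicle and NRF2 KO CM/CDDO-Me and between media/CDDO-Me and media/vehicle, and Cd209a only between KEAP1 KO CM/vehicle and NRF2 KO CM/CDDO-Me. Clec4n separated WT CM/CDDO-Me, media/CDDO-Me, NRF2 KO CM/vehicle and media/vehicle from each other, while each of KEAP1 KO CM/CDDO-Me and WT CM/CDDO-Me overlapped NRF2 KO CM/CDDO-Me and not the other. Clec4d had a gap only between media/CDDO-Me and NRF2 KO CM/vehicle. No neighbouring groups were separated for Clec7a and Clec4a2.

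Genes that lie side by side did not share 1 pattern. Clec10a and Mgl2 had a Pearson r of 0.916 over the 24 libraries on the log2 scale, but in WT CM/CDDO-Me Clec10a kept 77.7 to 102 TPM where Mgl2 kept 4.10 to 17.5 TPM. Clec4n and Clec4e had an r of 0.828, and Clec4n and Clec4d, which are closer than that pair, had an r of 0.546. Across the uptake receptors Mrc1 and Cd209a had an r of 0.929 and Mrc1 and Mgl2 an r of 0.846, while Mrc1 and Clec4n ran in opposite directions with an r of -0.743. All of these describe 24 libraries that fall into 8 groups, so they mostly compare group levels.

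**Figure D4:**
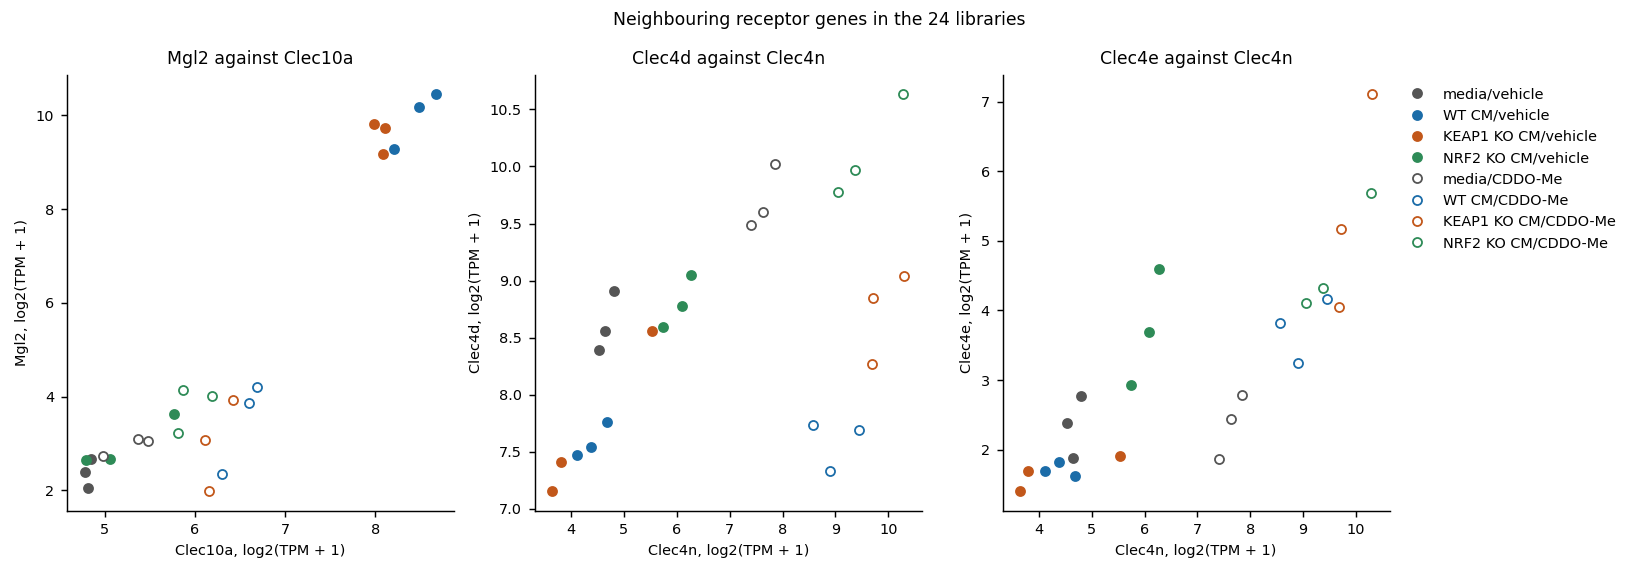
Levels of neighbouring receptor genes in the 24 libraries as log2 of TPM plus 1, with Mgl2 against Clec10a, Clec4d against Clec4n and Clec4e against Clec4n; filled points are vehicle and open points CDDO-Me. The 6 libraries of WT CM/vehicle and KEAP1 KO CM/vehicle form a corner of their own for Mgl2 and Clec10a, and the WT CM/CDDO-Me libraries combine high Clec4n (379 to 697 TPM) with low Clec4d (160.2 to 212 TPM).

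Over the same 24 libraries, the genes most like each receptor were named by Pearson r on the scaled log2 values. Most like Mrc1 were Prrg1 (0.977), Man1a (0.969) and Rnase4 (0.966), where Man1a encodes a mannosidase of the Golgi. Most like Clec10a were Wdfy2 (0.970), Gda (0.943) and Nfil3 (0.936). Mgl2 was followed most closely by Rnase2a (0.978), Retnla (0.974) and Arg1 (0.972), the last 2 well known from alternatively activated macrophages, and Cd209a by Ang (0.954), Rnase4 (0.944) and Mrc1 (0.929). For Clec4n they were Pla2g7 (0.974), Tshz1 (0.973) and Trps1 (0.952), for Clec4d Tmcc1 (0.934), Ubxn8 (0.909) and Gstm1 (0.902), and for Clec4e Il1b (0.900), Trps1 (0.888) and Ninj1 (0.885), where Il1b encodes interleukin-1 beta. Clec7a was most like Lrrc8d (0.909), Mtm1 (0.886) and Srd5a3 (0.874), and Clec4a2 was most like Zrsr2-ps1 (0.938), Ugt1a7c (0.917) and Rogdi (0.914).

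Other genes with a C-type lectin domain were counted beside the members, 36 in a list of which 27 were tested. In WT CM/vehicle against media/vehicle 3 were higher (Cd209e, 1.54 on the log2 scale, Clec4a3, 1.33, and Olr1, 0.88) and 3 lower (Clec12a, -2.18, Cd93, -0.61, and Ly75, -0.77), with a median of -0.02 against 0.01 over all genes. Over all genes tested 4.38% were called higher and 2.85% lower in that comparison. Cd209e is a further DC-SIGN relative and Clec12a an inhibitory receptor. CDDO-Me in WT CM called 11 higher and 4 lower, with a median of 0.23 against -0.01 over all genes, and in KEAP1 KO CM 11 higher and 3 lower. Over all genes tested CDDO-Me called 14.4% higher and 13.4% lower in WT CM, and 14.4% and 14.3% in KEAP1 KO CM. Clec9a (6.61), Klrb1b (3.57) and Klra2 (5.27) led the rises in WT CM, and Cd209e (-1.50) and Clec2i (-1.55) fell, so that Cd209e moved in the same directions as Cd209a. In media alone CDDO-Me called 2 higher (Cd302, 0.63, and Ly75, 0.71) and 3 lower, and in NRF2 KO CM 2 higher and 5 lower. The shares over all genes were 3.22% higher and 2.8% lower in media, and 4.87% and 4.74% in NRF2 KO CM.

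The signaling genes below the activating receptors moved in both directions. Of 19 genes from the gamma chain and Syk to CARD9 and NF-kappa B, all tested, 1 was higher (Prkcd, the kinase upstream of CARD9, 0.70) and 3 lower (Inpp5d, -0.51, Nfatc2, -0.67, and the phosphatase gene Ptpn6, -0.57) in WT CM/vehicle against media/vehicle. CDDO-Me called 0 higher and 1 lower in media (Syk, -0.55), 6 higher and 2 lower in WT CM, 7 higher and 1 lower in KEAP1 KO CM, and 2 higher and 0 lower in NRF2 KO CM. The shares over all genes were 4.38% higher and 2.85% lower for WT CM against media with vehicle. For CDDO-Me they were 3.22% higher and 2.8% lower in media, and 14.4% and 13.4% in WT CM. In KEAP1 KO CM they were 14.4% and 14.3%, and in NRF2 KO CM 4.87% and 4.74%. In WT CM Ptpn6 (1.99), Nfatc2 (1.66) and Lyn (1.45) rose while Syk (-0.50) and Rel (-0.65) fell, with a median over the list of 0.28. Of 9 genes around MCL and Mincle, the gamma chain with cytokines and receptors known from their induction, CDDO-Me called 0 in media, 5 higher in WT CM (Tnf, 3.14, Myd88, 1.42, and Nos2, 2.81), 7 higher in KEAP1 KO CM and 3 higher in NRF2 KO CM (Csf2ra, 0.65, Il6, 1.64, and Il1b, 2.39). With vehicle, WT CM against media called 0 of these higher and 1 lower (Tnf, -1.50).

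Among 14 transcription factors known to act on these receptors, 3 were higher in WT CM/vehicle than in media/vehicle: Klf4 (1.87), Irf4 (2.67) and Myc (1.03). Of the 14 factors 0 were lower, and over all genes 4.38% were higher and 2.85% lower. CDDO-Me in WT CM called 5 higher, among them Irf8 (2.36) and Stat3 (1.35), and 4 lower, with Pparg (-1.76), Irf4 (-3.04) and Myc (-1.61) first, beside 14.4% higher and 13.4% lower over all genes. In media it called 1 higher (Bach1, 0.52) and 1 lower (Pparg, -0.55), beside 3.22% and 2.8% of all genes. The 14 genes of the IL-4 response outside the lectins were mostly higher where Mrc1, Clec10a and Mgl2 were higher. Against media with vehicle, 12 were called higher in WT CM (median 2.61 on the log2 scale) and 13 in KEAP1 KO CM (median 2.76). In NRF2 KO CM 0 were called. Over all genes 4.38%, 4.87% and 0.00732% were called higher, in the same order of media. CDDO-Me lowered 11 of the 14 in WT CM and 12 in KEAP1 KO CM, beside 13.4% and 14.3% of all genes. It raised 1 in each, Il4ra (1.52 and 1.37), the receptor chain for IL-4.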

How the data were processed

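RNA from 24 BMDM libraries was measured, 3 in each of 8 groups assigned from the sample labels. For the authors, Novogene sequenced poly-A RNA, and they pseudo-aligned the reads to GRCm39 cDNA with Kallisto (named in the submitters' processing notes), filtered low counts, applied TMM normalization and used limma. The deposited values are TPM, which sum to nearly the same total in each library (999365 to 999801 over named genes), so the depth of a library is not known and nothing that needs it is printed. A single unnamed row holding 0.0199% to 0.0635% of TPM was left out.

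TMM factors (trimming 30% of M and 5% of A) put the libraries on 1 scale, and a pseudocount of 1 was added before taking log2, so fold changes understate the change of low genes. Genes over 1 TPM in 3 or more libraries, 13661 in all, entered limma's moderated test with a trend on the mean level, all 24 libraries in 1 fit with 16 residual degrees of freedom. Two-sided p-values were adjusted across all genes (Benjamini-Hochberg) and held against 0.05. The fit was tested on simulated data. Folds of mean TPM are unscaled. Values of single libraries are the deposited TPM.

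The members and all gene and marker lists were chosen with earlier results of these data known. Named were all 10 members, up to 3 passing genes with the smallest adjusted p from each list, and the 3 genes with the highest Pearson r to each member. A gene named apart from these, such as Flt3, was chosen after its values were seen.

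Same-numbered libraries were checked for deviating together. Over the 8 groups, 71 of 84 same-numbered pairs had a correlation of deviations over 0.1 (mean 0.256, against -0.121 for differently numbered pairs). Deviations from a group mean cancel within the group, so the second mean largely follows from the first and is no independent comparison. Between NRF2 KO CM/CDDO-Me and NRF2 KO CM/vehicle the same-numbered correlations were 0.504 to 0.719. Replicate 3 of both groups detected few genes. Every pair passed for WT CM against media with vehicle, KEAP1 KO CM against WT CM, CDDO-Me in media and in NRF2 KO CM, and each CM against media under CDDO-Me, and there the fit with the replicate number as a block was read as paired. The pairing comes from the data, since the labels do not say what a number marks.

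The alternatives tried were RLE scaling or none, no low-value filter, a filter at TPM above 5, pseudocounts of 0.1 and 5, limma without a trend, array weights, the block, the compared groups alone, the fit without the few-gene libraries, and each library left out in turn. Coordinates and sequence are from GENCODE's annotation and the genome of GRCm39, the authors' build. Computation ran in R 4.3.3 with limma 3.58.1 and in Python 3.11.15 with pandas 2.3.3 and matplotlib 3.10.9. The values of 1 gene on the transcription factor list are not reported here.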

Additional observations from a re-analysis of the deposited data

Results flagged for a closer look

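The change with CDDO-Me differed between CM and media for 6 receptors, by a test of the difference of differences with limma over all genes. All values are log2 differences, the change in CM minus the change in media. Mrc1 gave -3.70 with WT CM and -3.69 with KEAP1 KO CM, where it fell by over 4 in CM and its change in media, -0.42, did not pass. Clec10a gave -2.28 and -2.14, its levels going down in CM and lying higher in all media/CDDO-Me libraries than in media/vehicle. Mgl2 gave -6.98 and -7.02, the widest gap of the tested members. Cd209a gave -2.10 and -1.67, with most of its CDDO-Me libraries in these CM listed at 0. It entered the test through its vehicle levels in the same CM. Clec4n gave 2.75 and Clec4e 3.88, both with KEAP1 KO CM. For Clec4e the libraries of KEAP1 KO CM/CDDO-Me spread from 15.6 to 137 TPM. With 3 libraries per group, no library was tested for lying apart from its group.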

How the results depend on the processing

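No direction of a call reversed under any of 35 settings. Of 2641 values recomputed, 2541 kept their side of the threshold, 30 lost the call and 70 gained it. The calls for Clec10a, Mgl2 and Cd209a with WT and KEAP1 KO CM, and their falls with CDDO-Me there, held in all settings run for them, as did the rises of Clec4n with CDDO-Me. Cd209a was not tested under the filter at TPM above 5. Mrc1 held in the same comparisons, and its call in WT CM against NRF2 KO CM was lost when only those groups were fitted (adjusted p = 0.0623).

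Counts of members called moved by over 1.5 times as follows. For CDDO-Me in media (1) the count was 2 without scaling, 3 without the few-gene libraries, 4 with the replicate block or the compared groups only, and 5 with array weights. For CDDO-Me in NRF2 KO CM (3) it was 5 with the block and 1 with the compared groups only. For NRF2 KO CM against media under CDDO-Me (0) it was 1 without scaling or with a pseudocount of 5, 3 with the block and 6 with array weights. For KEAP1 KO CM against WT CM (0) it was 2 with array weights, and for WT CM against NRF2 KO CM (7) it was 4 with the compared groups only. For the CDDO-Me effect in WT CM against media (4) it was 7 with array weights or the compared groups only and 8 with the block. Smaller moves included 6 in place of 4 with array weights for KEAP1 KO CM against media with vehicle (Clec4d and Clec4n added) and for WT CM against media under CDDO-Me (Clec4e and Mgl2 added), and without the few-gene libraries for the CDDO-Me effect in WT CM against media (Clec4e, adjusted p = 0.0416, and Clec4n, 0.0215, added). Leaving out 1 library in turn gave 4 to 7 for WT CM against NRF2 KO CM, 4 to 5 for KEAP1 KO CM against media with vehicle, 6 to 7 for CDDO-Me in KEAP1 KO CM, 2 to 3 for CDDO-Me in NRF2 KO CM and 3 to 4 for WT CM against media under CDDO-Me. It left the other counts as they were. With the block, calls over all genes went from 822 to 1464 for CDDO-Me in media and from 1313 to 1986 in NRF2 KO CM. For NRF2 KO CM against media under CDDO-Me they went from 26 to 160. For the CDDO-Me effect in WT CM against media they went from 2093 to 2894. Calls over all genes under the other settings are not printed, so those counts cannot be read as particular to the receptors. The causes of these moves were not tested.

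In comparisons where the replicate numbers did not pair the samples by the check, the block gave further calls: Clec4d in KEAP1 KO CM against media (adjusted p = 0.00428), Clec7a in WT CM against NRF2 KO CM (0.0289), and Clec4a2 for CDDO-Me in WT CM (0.0159) and KEAP1 KO CM (0.000938). For the CDDO-Me effect in WT CM against media it gave Clec7a (0.0251), Clec4n (0.0154), Clec4d (0.0173) and Clec4e (0.0288). Beside these and the calls given with the results, the block changed no other call. Over all genes the block raised the calls in WT CM against media with vehicle from 988 to 1743. For the CDDO-Me effect in WT CM against media it raised them from 2093 to 2894. Without filter, Clec4d and Clec4e lost their calls in WT CM against NRF2 KO CM (adjusted p = 0.0638 and 0.0824), and so they did without the few-gene libraries (0.0613 and 0.0999). Without scaling, the median of all genes moved to -0.12 for CDDO-Me in WT CM and -0.17 in KEAP1 KO CM. Depth is unknown, 3 libraries a group limit the precision, and levels under 1 TPM, as for Cd209d, carry little weight.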

Other observations

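The summed level of 8 mast cell and basophil markers was 1.06 to 17.3 TPM over the 24 libraries, with Tpsb2 listed at 0 in all of them. The sum of 8 lymphocyte markers was 4.10 to 17.1 TPM, and it was 14.0 to 17.1 TPM in NRF2 KO CM/vehicle. The dendritic cell marker Xcr1 was listed at 2.92 to 4.69 TPM in WT CM/CDDO-Me and 1.91 to 2.27 TPM in KEAP1 KO CM/CDDO-Me, and at no more than 0.18 TPM in the libraries of the other 6 groups.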
